A study of Rattus norvegicus with 12 samples.

Results

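The miRNAs described here are those of a deposited table called exosome, in which rat serum libraries headed M were compared with libraries headed CK. All 367 miRNAs of the table were taken, of 941 rows in the tables of serum and heart together. A fold of M over CK was computed for the 198 miRNAs whose mean over both groups (the deposited mean normalized read count) was 100 or more, and the 169 scarcer ones are described apart. At the limit of 100, the nearest miRNAs inside were miR-31a-5p (76.5 in CK, 125.1 in M) and miR-200c-3p (71.7 and 136.3), and the nearest outside were miR-1843b-5p (0 and 198) and miR-483-5p (142.8 and 55.3), all of them the authors' means.

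Small RNA was sequenced from SD rats, with 6 samples labelled Serum and 6 labelled heart. The study's design text describes closing the left coronary artery for 30 min, followed by reperfusion over a week. Neither the meaning of CK and M nor which of them was operated on is given in the labels, and age and sex are not given either, so both headings are used as they stand. No label describes an isolation of vesicles, and the word exosome comes from the name of the table alone.

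Exosomes are small vesicles that cells release into body fluids, and they carry proteins, mRNA and miRNAs. A miRNA is a short RNA cut from a hairpin precursor, and it guides the silencing machinery to mRNAs that pair with its seed, the stretch at bases 2 to 8. miRNAs that share a seed form a family, and many are encoded close together and transcribed as one unit. Serum miRNAs come largely from blood cells, platelets, liver and the vessel wall, and some hairpins are so restricted to one tissue that they serve as its marker. In such a mixed fluid, fewer vesicles from a cell type and less of a miRNA in each vesicle cannot be told apart.

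The sequences that follow are rat mature miRNAs from RefSeq (annotation of GRCr8), in which the seed is in capitals. Of the 198 miRNAs, 179 had a sequence there. The first set holds the let-7 family members with a p below 0.05, all higher in M, which share 1 seed and differ elsewhere by few bases.
let-7a-5p: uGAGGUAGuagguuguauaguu
let-7b-5p: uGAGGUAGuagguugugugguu
let-7c-5p: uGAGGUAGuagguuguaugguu
let-7d-5p: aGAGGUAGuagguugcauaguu
let-7f-5p: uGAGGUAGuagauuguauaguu
let-7g-5p: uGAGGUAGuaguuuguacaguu
let-7i-5p: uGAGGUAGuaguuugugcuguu
miR-98-5p: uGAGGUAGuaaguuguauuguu
The next set holds the other miRNAs of the 198 that rose in M at an adjusted p below 0.05, among which the miR-26 pair shares a seed.
miR-26a-5p: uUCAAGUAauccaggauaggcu
miR-26b-5p: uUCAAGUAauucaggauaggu
miR-30c-5p: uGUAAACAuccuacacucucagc
miR-186-5p: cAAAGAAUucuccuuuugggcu
miR-652-3p: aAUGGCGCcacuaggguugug
The miRNAs of the 198 that fell at that threshold are shown with partners that were lower at an unadjusted p below 0.05. The RefSeq form of miR-10b-5p starts later than that of miR-10a-5p, so their seeds differ although their sequences are related.
miR-199a-3p: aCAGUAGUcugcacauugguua
miR-214-3p: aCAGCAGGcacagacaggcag
miR-143-3p: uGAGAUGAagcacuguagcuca
miR-145-3p: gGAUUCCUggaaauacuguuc
miR-22-3p: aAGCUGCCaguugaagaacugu
miR-10b-5p: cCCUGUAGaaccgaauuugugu
miR-10a-5p: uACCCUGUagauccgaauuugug
miR-100-5p: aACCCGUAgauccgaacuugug
miR-125b-5p: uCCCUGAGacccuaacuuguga

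In M, members of the let-7 and miR-26 families rose, and miR-199a-3p and miR-10b-5p of mesenchymal cells and miR-143-3p of smooth muscle fell. In the authors' deposited table, 9 of the 367 miRNAs rose (2.45%) and 5 fell (1.36%) at an adjusted p below 0.05, of which 8 and 4 had a mean of 100 or more. The unadjusted p there was below 0.05 for 20 higher miRNAs of the 198 (10.1%) and for 22 lower ones (11.1%). A fold of at least 2 separated 27 higher (13.6%) and 38 lower (19.2%), which became 19 and 44 when both groups were scaled to the same total. That scaling lowers each log2 fold by 0.13, because the M means sum to more normalized reads than the CK means. As deposited, 96 of the 198 were higher and 102 lower, with a median log2 fold of -0.04 and quartiles of -0.82 and 0.54. Every list of miRNAs below is read against this median and these shares.

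**Figure D1:**
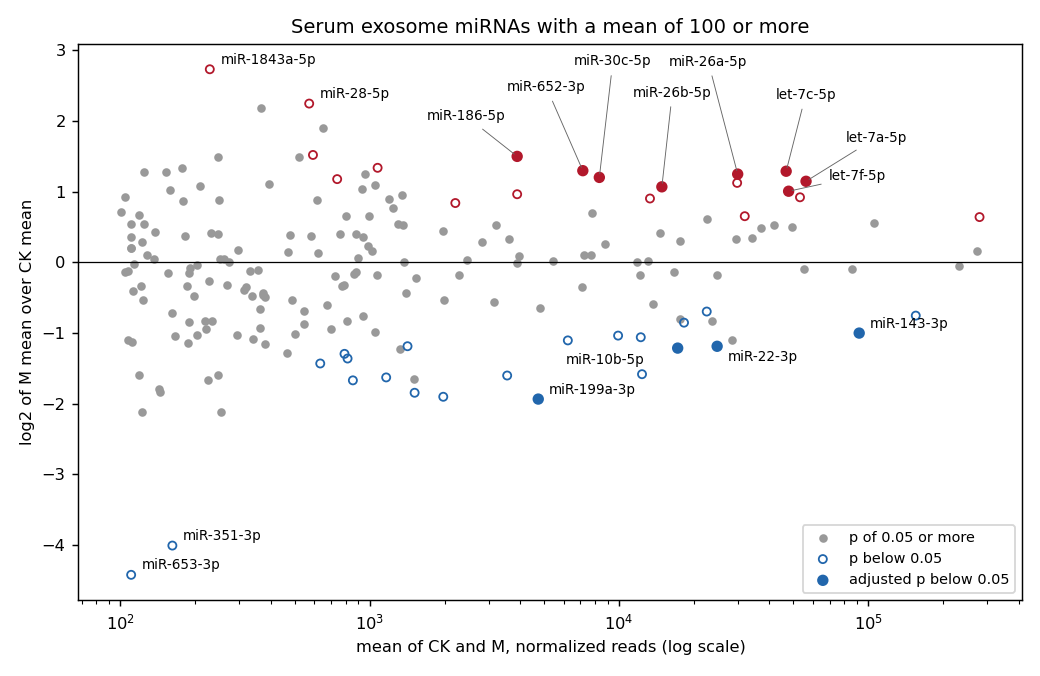
Log2 of the M mean over the CK mean (y axis) against the mean of both groups in normalized reads (x axis, log scale) for the 198 miRNAs with a mean of 100 or more. Red marks miRNAs higher in M and blue those lower, open at an unadjusted p below 0.05 and filled at an adjusted p below 0.05, both from the authors' deposited table. Among the filled points, 8 lie above the line at 0 and 4 below it.

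The depth of the libraries was estimated at 1696000, 2961000 and 5328000 miRNA reads in CK and at 1855000, 1953000 and 1961000 in M, so the CK libraries varied more. Levels in single libraries were reconstructed from the printed digits of the means for 309 miRNAs in CK and 316 in M, and the more abundant ones could not be solved. Libraries are numbered by increasing depth within a group and cannot be matched to labelled samples. Among 138 miRNAs of the 198 with levels in every library, all M libraries exceeded all CK libraries in 11 (7.97%), and the reverse held in 15 (10.9%). Of the miRNAs at an unadjusted p below 0.05, 15 had such levels and 27 did not, and in 10 of these 15 the groups did not overlap. Their choice by p from the same libraries favours such separation.

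The table held the miRNAs that serum usually carries. miR-486, made by red cell precursors and by muscle, had the authors' means of 257951 in CK and 287407 in M, and miR-223-3p of myeloid cells and platelets had 26065 and 32691. Liver's miR-122-5p stood at 30260 and 16967 here, while the separately normalized heart table gave 16.9 for it in CK. The heart muscle markers miR-208a and miR-208b were not listed, and miR-499 was listed with a mean under 100. Proteins that define vesicles were not measured, so the vesicle origin of this RNA was not tested. The 10 most abundant miRNAs, which also include miR-92a-3p, miR-23a-3p and miR-423-5p with log2 folds of -0.05, -0.09 and -0.09, held 60.1% of the reads in CK and 59.6% in M.

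The let-7 family, which restrains cell growth and keeps cells differentiated, was higher in M wherever it was abundant. All 13 of its arms with a mean of 100 or more were higher, with a median log2 fold of 0.90, and 8 had an unadjusted p below 0.05, while of its 4 scarce arms 3 were lower. The deposited values of let-7a-1-3p and let-7c-2-3p were identical, so these arms count as 1 measurement entered under both names. Its share of all reads was 9.85% in CK and 17.6% in M. let-7c-5p rose from 27159 to 66417 (log2 fold 1.29, adjusted p = 0.0129, the authors' deposited table). let-7a-5p rose from 34959 to 77467 (log2 fold 1.15, adjusted p = 0.0129, the authors' deposited table). let-7f-5p rose from 31800 to 63921 (log2 fold 1.01, adjusted p = 0.0265, the authors' deposited table). These are among the most abundant miRNAs of the table, and their single libraries could not be solved.

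The other let-7 members did not pass when adjusted. let-7g-5p (log2 fold 0.92), let-7d-5p (0.90), miR-98-5p (0.96), let-7b-5p (1.13) and let-7i-5p (0.65) were higher, with unadjusted p-values between 0.00349 and 0.0287 that come from the authors' deposited table. In miR-98-5p, the only one of these solved in a group, the CK libraries lay close together at 2418, 2800 and 2712. The 3p arms were lowest, with a log2 fold of 0.20 for let-7a-1-3p. Without each library in turn that log2 fold was -0.38 to 1.05, so its sign was not kept. All 9 listed members with the seed GAGGUAG were higher, with log2 folds of 0.65 to 1.29. The sequences of let-7c-5p and let-7f-5p differ from let-7a-5p by 1 base each, those of let-7b-5p, let-7d-5p, let-7g-5p and miR-98-5p by 2, and that of let-7i-5p by 4. Reads can be shared between such near-identical miRNAs, so their folds are not separate measurements.

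The miR-26 family, whose targets include the chromatin enzyme Ezh2, also rose. miR-26a-5p rose from 17704 to 42097 (log2 fold 1.25, adjusted p = 0.0104, the authors' deposited table). miR-26b-5p rose from 9580 to 20106 (log2 fold 1.07, adjusted p = 0.0479, the authors' deposited table). Together they held 1.23% of the reads in CK and 2.57% in M. Their sequences differ by 3 bases, so their reads can be shared in part.

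The remaining miRNAs that rose belong to other families. miR-186-5p, encoded in an intron of Zranb2 in human, rose from 2038 to 5765 (log2 fold 1.50, adjusted p = 0.0129, the authors' deposited table), and its CK libraries were 2152, 2436 and 1526. miR-652-3p rose from 4137 to 10171 (log2 fold 1.30, adjusted p = 0.0265, the authors' deposited table). miR-30c-5p rose from 5047 to 11617 (log2 fold 1.20, adjusted p = 0.0415, the authors' deposited table). Its family, abundant in heart muscle and kidney, had 6 of 7 arms higher with a median of 0.15, and 4 of 7 with the same total. miR-30d-5p, its most abundant arm, had a log2 fold of 0.52, miR-30a-5p 0.01 and miR-30a-3p, the lowest, -0.33, or -0.96 without M library 1.

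Below the adjusted threshold, the authors' deposited table held miRNAs of other families that were higher with an unadjusted p below 0.05. miR-28-5p, encoded in an intron of Lpp, had levels of 191, 263 and 143 in CK and of 1092, 823 and 918 in M. Every M library was far above every CK library (log2 fold 2.25, p = 0.00489, adjusted p = 0.0854, the authors' deposited table), and the log2 fold was 2.06 to 2.50 without each library in turn. With its relative miR-151, all 4 arms of this family were higher (median 0.90), from miR-151-3p at 0.10 upwards, and 3 of 4 with the same total. miR-106b-3p, from an intron of Mcm7, had 466, 185 and 266 in CK and 909, 556 and 1168 in M, again without overlap (log2 fold 1.52, p = 0.0386, the authors' deposited table).

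Some of these miRNAs had libraries that overlapped. miR-7a-5p, a miRNA of neuroendocrine cells, had 978, 322 and 60.7 in CK and 775, 980 and 1325 in M, where CK library 1 overlapped the M libraries. Its log2 fold was 1.18 (p = 0.0195, the authors' deposited table), 2.43 without CK library 1 and 0.66 without CK library 3. miR-103-3p, encoded in introns of Pank genes, had 2503, 1233 and 1003 in CK and 3483, 1990 and 3012 in M (log2 fold 0.84, p = 0.0343, the authors' deposited table), and without CK library 1 the log2 fold was 1.34. miR-191a-5p, abundant in blood cells and the most abundant miRNA here by the mean of both groups, had means of 218018 and 340104 in the authors' deposited table (log2 fold 0.64, p = 0.0427).

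miR-1843a-5p had levels of 0, 142 and 37.0 in CK and of 539, 400 and 251 in M, without overlap (log2 fold 2.73, p = 0.0382, the authors' deposited table). The log2 fold was 4.42 without CK library 2, which held most of its CK reads. The scarcer miR-1843b-5p had 0 in each CK library and 408, 114 and 72.7 in M. With a floor of 3 reads over the CK group it rose at least 152-fold (adjusted p = 0.0129, the authors' deposited table), and at least 71.4-fold without M library 1. Both sequences are printed because they overlap in a run of 20 bases that is shifted by their start, so the same reads could be given to either.
miR-1843a-5p: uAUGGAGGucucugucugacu
miR-1843b-5p: aUGGAGGUcucugucugacuuag

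miRNAs of mesenchymal cells were lower in M in every listed arm. All 6 with a mean of 100 or more were lower, with a median log2 fold of -1.63, and each had an unadjusted p below 0.05, beside 11.1% of the 198. The list held 2.94% of the reads in CK and 1.18% in M. miR-199a-3p, one of whose genes lies with that of miR-214 in a transcript antisense to Dnm3, fell from 7513 to 1967 (log2 fold -1.93, adjusted p = 0.000243, the authors' deposited table), and its M libraries were 1865, 2164 and 1873. This was the smallest adjusted p of the table. Its neighbour miR-214-3p had means of 3110 and 833 in the authors' deposited table (log2 fold -1.90, p = 0.00704, adjusted p = 0.112), with M libraries of 850, 1127 and 523.

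The miR-10/99/100 family, ancient hairpins of which miR-10a and miR-10b lie within Hox clusters, supplied the other 4 members of that list. All 5 arms of this family with a mean of 100 or more were lower, with a median of -1.21. miR-10b-5p fell from 23999 to 10359 (log2 fold -1.21, adjusted p = 0.0129, the authors' deposited table). miR-10a-5p had means of 23441 and 12987 in the authors' deposited table (log2 fold -0.85, p = 0.0135). miR-99a-5p had means of 5350 and 1765 in the authors' deposited table (log2 fold -1.60, p = 0.00458), with M libraries of 1299, 2591 and 1405.

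miR-100-5p had 1999, 985 and 922 in CK and 573, 270 and 386 in M (log2 fold -1.67, p = 0.0185, the authors' deposited table). All M libraries lay below all CK libraries, and the log2 fold was -1.99 to -1.22 without each library in turn. miR-99b-5p had the smallest change of the family, with a log2 fold of -0.55 that did not pass.

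Smooth muscle's miR-143 and miR-145, a pair cut from one transcript that maintains the contractile state, were also lower. miR-143-3p fell from 122436 to 61235 (log2 fold -1.0, adjusted p = 0.0291, the authors' deposited table). miR-145-3p had 704, 1370 and 1300 in CK and 225, 771 and 381 in M, where M library 2 overlapped CK library 1 (log2 fold -1.29, p = 0.0457, the authors' deposited table). Without M library 2 that log2 fold was -1.89. miR-145-5p, the guide arm, had 1855, 1536 and 787 in CK and 952, 652 and 511 in M, with an overlap and a log2 fold of -0.98 (p = 0.144, the authors' deposited table). The 3 arms had a median of -1.0, and their share of reads was 5.64% in CK and 2.58% in M.

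miR-22-3p, which is widespread and abundant in muscle, fell from 34363 to 15100 (log2 fold -1.19, adjusted p = 0.0129, the authors' deposited table). It belongs to none of the lists.

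The miR-125 and miR-351 family, relatives of the worm miRNA lin-4, had 4 of 6 arms lower with a median of -0.97, and its share of reads was 2.65% in CK and 1.06% in M. Of these arms, miR-125a-5p, miR-125b-5p and miR-351-5p share the seed CCCUGAG, and 2 of these 3 were lower. miR-125b-5p had means of 18526 and 6192 in the authors' deposited table (log2 fold -1.58, p = 0.00575). miR-351-3p had 398, 139 and 375 in CK and 0, 30.9 and 25.9 in M, without overlap (log2 fold -4.01, p = 0.00781, the authors' deposited table). Its log2 fold was -3.42 without M library 1. miR-351-5p, the other arm of that hairpin, and miR-125b-2-3p, a passenger arm, had log2 folds of 0.41 and 0.43 that did not pass. In the neighbourhood of miR-351, 7 of 9 arms from the hairpins miR-322, miR-351, miR-450a, miR-450b, miR-503 and miR-542 were lower, with a median of -1.13.

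**Figure D2:**
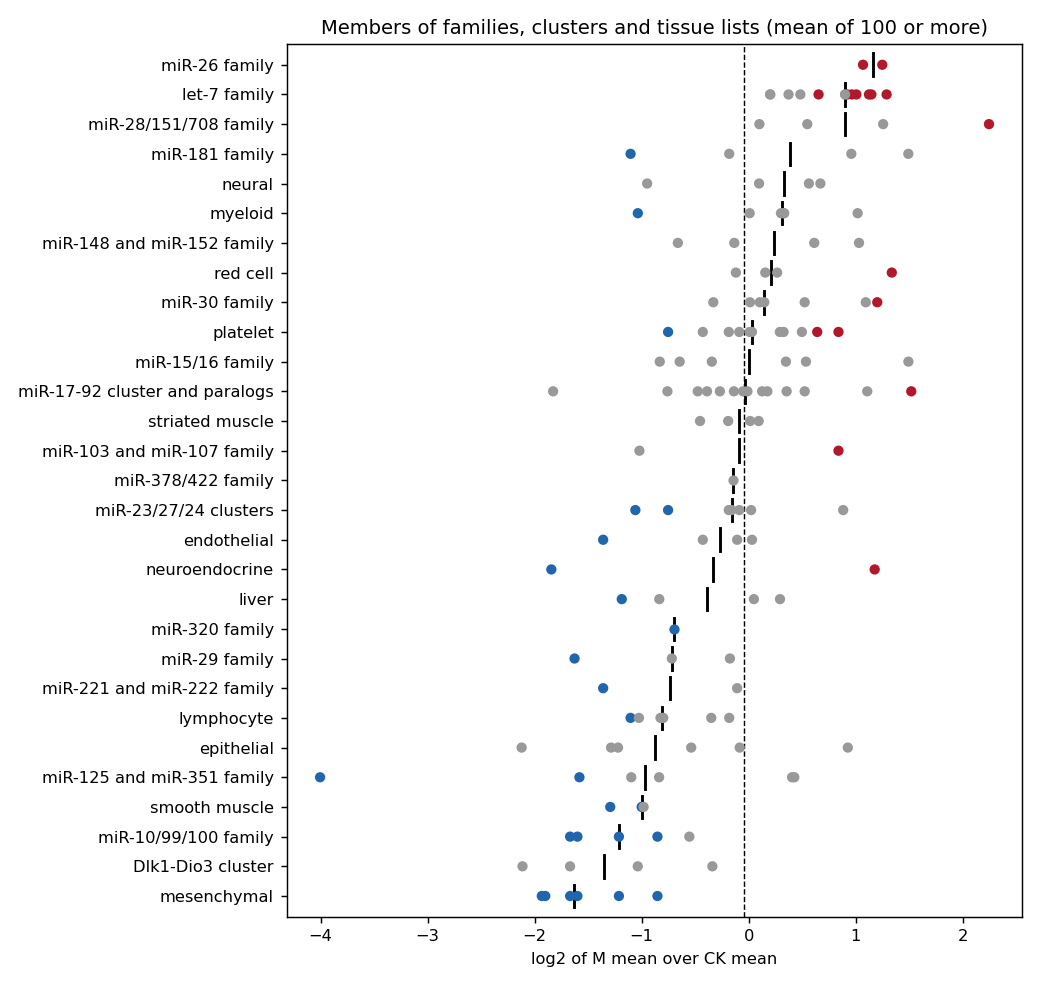
Log2 of the M mean over the CK mean (x axis) for members of 29 lists of families, genomic clusters and tissue markers with a mean of 100 or more, ordered by list median. Each point is a miRNA arm, red or blue where the authors' deposited table gives it an unadjusted p below 0.05 and grey otherwise; black bars are list medians and the dashed line is the median of the 198, -0.04. The miR-26 family stands at the top with 1.16 and the mesenchymal list at the bottom with -1.63.

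Both directions met within single gene clusters. RefSeq places a let-7 gene within 50 kb of a miR-99 or miR-100 gene and a miR-125 gene at 3 sites, and at each site the let-7 5p arm was higher in M while the 5p arms of both neighbours were lower. Beside let-7c-5p (1.29), the log2 fold was -1.60 for miR-99a-5p and -1.58 for miR-125b-5p, while the passenger arm miR-125b-2-3p of that site had 0.43 (p = 0.675, the authors' deposited table), which changed sign without M library 1 (-0.22). Beside let-7a-5p (1.15), it was -1.67 for miR-100-5p and again -1.58 for miR-125b-5p. Beside let-7e-5p (0.90) it was -0.55 for miR-99b-5p and -1.10 for miR-125a-5p, and none of these 3 passed at an unadjusted p below 0.05. This comparison and the name of let-7e-5p were chosen after the values were seen.

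The mature forms of let-7a-5p, let-7c-5p and miR-125b-5p are each encoded at more than 1 site, so their levels cannot be divided between sites. At let-7 sites without such neighbours the arms pointed the same way, and the 5 arms from the let-7a-1, let-7d and let-7f-1 genes were all higher with a median of 0.90. These sites share let-7a-5p and let-7c-5p with the sites above, so the agreement does not come from separate measurements. The neighbours miR-199a-3p and miR-214-3p were both lower, with a median of -1.92.

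**Figure D3:**
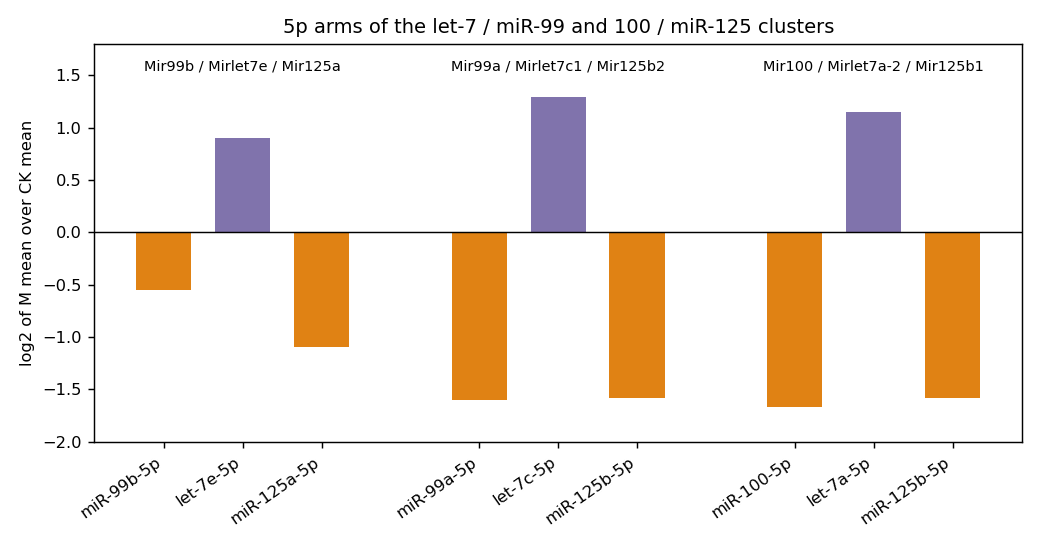
Log2 of the M mean over the CK mean (y axis) for the main arms of the 3 gene clusters that hold a let-7 (purple) beside a miR-99 or miR-100 and a miR-125 (orange). The let-7 bars reach 0.90, 1.29 and 1.15 and all other bars lie below 0; miR-125b-5p is drawn at 2 clusters because both encode it.

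Seeds gave the same contrast of shared and mixed direction. Among 179 miRNAs with a sequence there were 138 seeds, of which 21 were shared by 62 miRNAs, and in 11 of the 21 all members lay on the same side of 0. Seeds with few members can do so without any link, since 96 of the 198 were higher and 102 lower. How many of the 21 would be expected to was not computed, and near-identical members are not separate measurements. The miR-181 family, which tunes lymphocyte signalling, was mixed. miR-181a-5p had means of 8501 and 3958 in the authors' deposited table (log2 fold -1.10, p = 0.00361), with M libraries of 3165, 3933 and 4775. miR-181c-5p had 182, 482 and 153 in CK and 1231, 359 and 707 in M, with an overlap (log2 fold 1.49, p = 0.0831, the authors' deposited table), or 2.19 without CK library 2. miR-181d-5p of the same cluster as miR-181c had a log2 fold of 0.96 and miR-181b-5p one of -0.18, neither of which passed. The family median was 0.39.

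The seed ACAUUCA is shared by miR-181a-5p and miR-181c-5p, whose later bases differ, while miR-103-3p and miR-107-3p differ by 1 base only. These pairs are printed because their members had opposite log2 folds.
miR-181a-5p: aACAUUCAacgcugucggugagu
miR-181c-5p: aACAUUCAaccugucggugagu
miR-103-3p: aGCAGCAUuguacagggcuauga
miR-107-3p: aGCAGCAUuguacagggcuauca
miR-107-3p had 607, 308 and 269 in CK and 192, 89.1 and 303 in M, overlapping, with a log2 fold of -1.02 (p = 0.382, the authors' deposited table) against 0.84 for miR-103-3p. Reads of such a pair can be shared, and the family median was -0.09.

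The miR-23/27/24 clusters, linked to vessel growth, had 5 of 7 arms lower with a median of -0.16, and 6 of 7 with the same total. Their share of reads was 14.3% in CK and 9.26% in M. miR-24-3p had means of 194338 and 115360 in the authors' deposited table (log2 fold -0.75, p = 0.0119), and miR-27b-3p had 16508 and 7927 (log2 fold -1.06, p = 0.00220). Its near-copy miR-27a-3p, from the other cluster, had a log2 fold of 0.02, and the passenger arm miR-27a-5p had the highest of the list at 0.88.

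The miR-29 family, whose targets include collagen mRNAs, had all 3 arms lower with a median of -0.72. miR-29b-3p had 1963, 818 and 2494 in CK and 538, 705 and 465 in M, without overlap (log2 fold -1.63, p = 0.0143, the authors' deposited table). miR-29a-3p had a log2 fold of -0.17. The pair of miR-221 and miR-222 had a median of -0.73, with miR-222-3p at -0.11, and miR-320-3p, whose hairpin bypasses Drosha, had means of 27773 and 17160 in the authors' deposited table (log2 fold -0.69, p = 0.0221).

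Several large families had medians close to that of the 198. The miR-17-92 cluster and its paralogs had 6 of 14 arms higher with a median of -0.03, from miR-93-3p at -1.83 to miR-106b-3p at 1.52, and held 11.8% of the reads in CK and 10.5% in M. For miR-93-3p the log2 fold was -3.92 without M library 1 and -0.85 without CK library 3. The miR-15/16 family had 3 of 6 higher with a median of 0.00, and -0.12 with the same total, from miR-195-5p at -0.83, or -2.07 without M library 3. Its most abundant member, miR-16-5p, had a log2 fold of 0.35. The highest member was miR-15b-3p, at 84.9, 203 and 98.1 in CK and 401, 255 and 430 in M, which did not overlap (log2 fold 1.49, p = 0.207, the authors' deposited table). The miR-148 and miR-152 family had 2 of 4 higher with a median of 0.24, from miR-152-3p at -0.66 to miR-148b-3p at 1.03, with the abundant miR-148a-3p at 0.61, and miR-378a-3p had a log2 fold of -0.14.

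Among blood cells, the markers of red cells and myeloid cells had medians above that of the 198. The platelet median lay close to it, and that of lymphocytes below it. The red cell list had 3 of 4 arms higher with a median of 0.21, and its share of reads was 12.05% in CK and 12.4% in M. Most of these reads were miR-486, with 257951 of summed means of 266868 in CK and 287407 of 298849 in M. miR-144-5p, from the erythroid cluster of miR-144 and miR-451, had 822, 705 and 301 in CK and 998, 1339 and 2286 in M, without overlap (log2 fold 1.34, p = 0.0155, the authors' deposited table). Its other arm, miR-144-3p, had 644, 321 and 65.7 in CK and 53.4, 293 and 603 in M, which overlapped widely (log2 fold -0.12, and 0.71 without CK library 1). The neighbouring miR-451-5p had means of 7965 and 9585 in the authors' deposited table (log2 fold 0.27, p = 0.447).

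The platelet list had 7 of 11 arms higher with a median of 0.03, and 5 of 11 with the same total, and held 26.1% of the reads in CK and 26.5% in M. Within it miR-191a-5p and miR-103-3p were higher and miR-24-3p lower at an unadjusted p below 0.05, and none of the 3 passed when adjusted. The close platelet shares sum opposite changes of abundant arms. Of summed means of 578017 in CK and 640975 in M, miR-191a-5p held 218018 and 340104, and miR-24-3p held 194338 and 115360. The myeloid list, which shares miR-223 with it, had 5 of 6 arms higher with a median of 0.31, and 4 of 6 with the same total, the highest being miR-142-3p of leukocytes at 1.02 (p = 0.378, the authors' deposited table), or 1.87 without CK library 2 and 0.43 without CK library 3. The exception was miR-146a-5p, a brake on NF-kB signalling, with means of 13320 and 6500 in the authors' deposited table (log2 fold -1.04, p = 0.00231). None of the 5 higher myeloid arms had an unadjusted p below 0.05. The myeloid share of reads was 2.65% in CK and 2.61% in M, so it did not rise.

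The lymphocyte list was lower in each of 6 arms, with a median of -0.81 and a share of reads of 1.87% in CK and 1.03% in M. Its most abundant member, miR-150-5p of mature lymphocytes, had means of 22246 and 12799 in the authors' deposited table (log2 fold -0.80, p = 0.175). Of the 6, miR-181a-5p had an unadjusted p below 0.05 and none passed when adjusted.

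**Figure D4:**
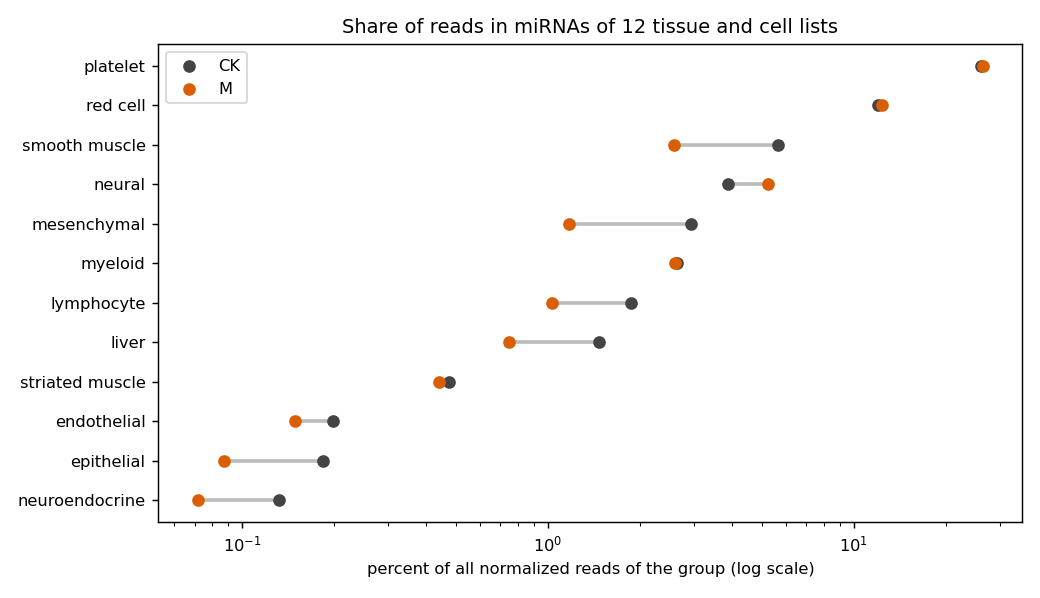
Share of all normalized reads (x axis, percent, log scale) held by the miRNAs of 12 tissue and cell lists in CK (dark) and M (orange), from the authors' means, which carry no error. The mesenchymal share is 2.94% and 1.18% and the smooth muscle share 5.64% and 2.58%, while the platelet and red cell shares lie close together. The platelet share includes miR-191a-5p, higher in M, and miR-24-3p, lower in M, and the red cell share is mostly miR-486.

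Among solid tissues, the liver list had 2 of 4 arms higher with a median of -0.39 and a share of 1.47% in CK and 0.749% in M. miR-192-5p, shared by liver, gut and kidney, had 2641, 1176 and 2089 in CK and 1040, 801 and 757 in M, without overlap (log2 fold -1.19, p = 0.0289, the authors' deposited table). miR-122-5p, the hepatocyte miRNA, had a log2 fold of -0.83 (p = 0.158, the authors' deposited table). miR-194-5p, often made with miR-192, had a log2 fold of 0.29 (p = 0.680, the authors' deposited table). That sign changed without CK library 2 (-0.01), CK library 3 (-0.16) or M library 3 (-0.39), and the other higher arm, miR-122-3p, had 0.05.

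The epithelial list had 5 of 6 arms lower with a median of -0.88, from miR-200a-3p at -2.12 to miR-200c-3p at 0.93, and none of the 6 had an unadjusted p below 0.05. For miR-200a-3p the log2 fold was -1.48 without CK library 1 and -2.84 without M library 1, and for miR-200c-3p it was 0.22 without M library 1. Its most abundant member, miR-203a-3p of skin, had a log2 fold of -1.22, or -0.59 without CK library 3. The endothelial list had 3 of 4 lower with a median of -0.27, and all 4 with the same total. miR-126a-3p, the best known miRNA of endothelium, had 3447, 2134 and 1681 in CK and 2061, 2901 and 2462 in M, which overlapped (log2 fold 0.03). miR-221-3p, of endothelium and smooth muscle, had 700, 1328 and 1489 in CK and 180, 444 and 747 in M, where 1 M library overlapped (log2 fold -1.36, p = 0.0324, the authors' deposited table).

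The neuroendocrine pair split, with miR-7a-5p higher and miR-375-3p lower (median -0.33). miR-375-3p, of pancreatic islets and gut epithelium, had 2093, 1126 and 3882 in CK and 537, 845 and 596 in M, without overlap (log2 fold -1.84, p = 0.0259, the authors' deposited table). The log2 fold was -1.29 without CK library 3. The neural list had 3 of 4 arms higher with a median of 0.33, and 2 of 4 with the same total, from miR-138-2-3p at -0.95 to miR-124-3p at 0.67, which changed sign without M library 1 (-0.65). Its reads came mainly from miR-128-3p, which other tissues also make, with means of 85358 and 126161 in the authors' deposited table (log2 fold 0.56, p = 0.0720). Of the 10 scarce arms of the neural list, 9 were lower in M and 5 were absent from M. Without a level limit the median of this list was -0.89, with the arms absent from M ranked lowest.

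No striated muscle miRNA passed, and their libraries overlapped widely where solved. Of 9 names in the list 6 were in the table, and the 4 arms with a mean of 100 or more had 2 higher and 2 lower (median -0.09), all 4 lower with the same total. The 2 scarce arms of the list, of miR-133b and miR-499, were both higher in M. All arms of the list together held 0.474% of the reads in CK and 0.440% in M. miR-1-3p, the main muscle miRNA, had the authors' means of 3832 and 4091 (log2 fold 0.09), and its M libraries were 1523, 8402 and 2349. Its near-copy miR-1b, which differs by 1 base, had 5396 and 5452. miR-206-3p, of skeletal muscle, had 464, 707 and 1159 in CK and 307, 1419 and 314 in M. Among the M libraries, miR-1-3p and miR-206-3p were both highest in library 2, far above the others. miR-133a-3p had 668, 368 and 257 in CK and 43.0, 259 and 642 in M, so M library 2 was not the highest for each muscle miRNA, and its log2 fold of -0.45 changed sign without CK library 1 (0.0097) or without M library 1 (0.06).

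A few more miRNAs outside the lists were lower with an unadjusted p below 0.05. miR-653-3p, encoded within the calcitonin receptor gene in human, had 266, 54.6 and 312 in CK and 0, 0 and 29.6 in M, without overlap (log2 fold -4.42, p = 0.0178, the authors' deposited table). The log2 fold was -3.83 without M library 1 or 2. miR-149-5p, from an intron of Gpc1 in human, had 709, 838 and 1222 in CK and 727, 141 and 160 in M (log2 fold -1.43, p = 0.0369, the authors' deposited table). M library 1 overlapped the CK libraries, and without it the log2 fold was -2.62.

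**Figure D5:**
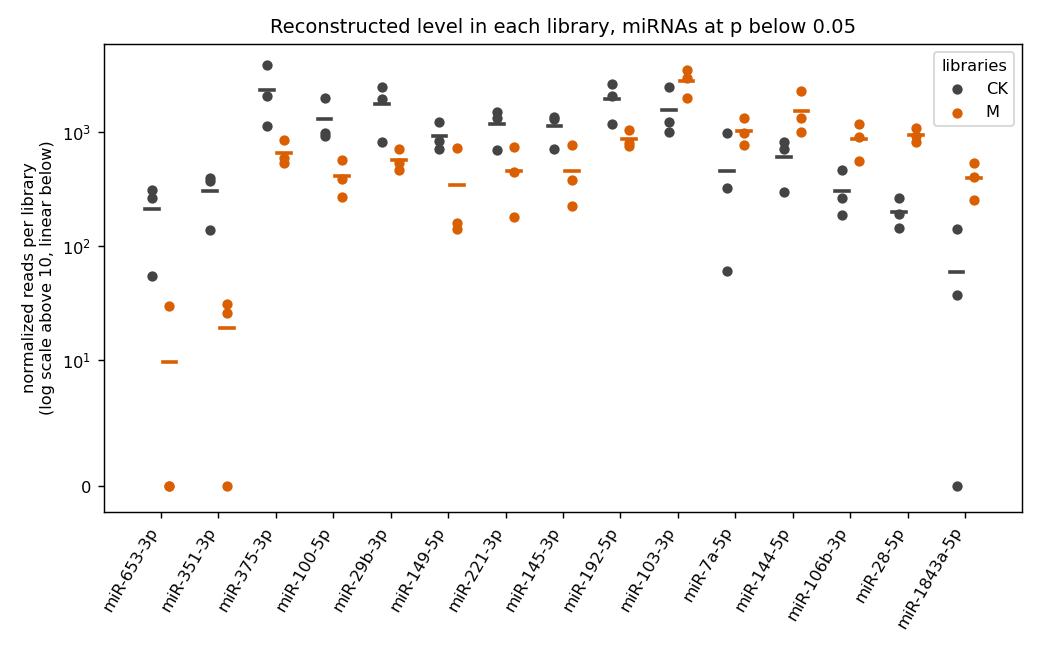
Reconstructed level in each library (y axis, normalized reads, log scale above 10 and linear below) for the 15 miRNAs with a mean of 100 or more, solved reads and an unadjusted p below 0.05 (from the authors' deposited table). Points are single libraries, dark for CK and orange for M, and bars are group means. The groups do not overlap in 10 of the 15, and in miR-28-5p the M libraries are 823 to 1092 beside 143 to 263 in CK. Choice by p from the same libraries favours such separation. Over all 138 solved miRNAs, M lay above CK in 7.97% and below in 10.9%.

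Scarce miRNAs, those with a mean under 100, were more often lower in M. Of the 169, 115 were lower and 54 higher, 59 were absent from all M libraries and 21 from all CK libraries. The unadjusted p was below 0.05 for 8 lower (4.73%) and 1 higher (0.592%) of them in the authors' deposited table. Of the 59 absent from M, 45 were found in 1 CK library only, and of the 21 absent from CK, 19 were found in 1 M library only. Solved miRNAs with 0 reads numbered 107, 87 and 86 in the CK libraries and 149, 115 and 97 in the M libraries. Depth was lower in M on average, and its part in the result was not tested. The 89 scarce miRNAs present in both groups had 56 lower and a median log2 fold of -0.60.

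miR-487b-3p, from the imprinted Dlk1-Dio3 cluster, had 162, 143 and 190 in CK and 0 in each M library. With a floor of 3 reads over the M group it fell at least 127-fold (adjusted p = 0.0265, the authors' deposited table), and at least 117-fold without CK library 3. The Dlk1-Dio3 cluster, a locus that is active in embryonic tissues, had 23 of 52 names in the table. Its 4 arms with a mean of 100 or more were all lower with a median of -1.35 and none passed, and of its 25 scarce arms 23 were lower and 14 were absent from M. miR-379-5p had the smallest change of the 4, with a log2 fold of -0.34 that changed sign without CK library 2 (0.39) or without M library 2 or 3 (0.25). miR-382-5p, the most abundant, had -1.67, or -0.97 without CK library 3 and -2.53 without M library 3. miR-494-3p had 201, 8.98 and 384 in CK and 0, 137 and 0 in M, which overlapped (log2 fold -2.11, p = 0.183, the authors' deposited table).

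miR-193a-5p had 448, 12.7 and 85.2 in CK and 0 in each M library, at least 140-fold lower, and at least 37.6-fold without CK library 1 (p = 0.00857, adjusted p = 0.121, the authors' deposited table). miR-125b-1-3p, the passenger arm of a miR-125b hairpin, had 30.0, 172 and 186 in CK and 0 in each M library, at least 99.3-fold lower (p = 0.00365, adjusted p = 0.0705, the authors' deposited table). miR-34b-3p, induced by p53, had 70.5, 100 and 244 in CK and 0, 0 and 11.1 in M (log2 fold -5.22, p = 0.0335, adjusted p = 0.286, the authors' deposited table), and the log2 fold was -4.53 without CK library 3. The CK libraries of each of these miRNAs varied severalfold, while their M libraries were at or near 0.

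The heart table, from other samples of the same study, gave no p below 0.05 for any of the 12 miRNAs that rose or fell here with a mean of 100 or more. All 12 were listed there, 4 with the same direction, and the authors' deposited table gave them heart log2 folds of -0.45 to 1.33 with p-values between 0.113 and 0.992. The matching shares over all miRNAs listed in both were not computed, so these counts show nothing particular to the 12. Both tables were normalized separately, and the difference between them was not tested.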

How the data were processed

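Small RNA was sequenced from 6 serum and 6 heart samples of SD rats. Per the labels' protocols, RNA was extracted with Trizol, and a NEBNext small RNA kit was used for the libraries. Bowtie2 2.2.6, DESeq 1.30.0 and the build mRatBN7.2 are named in the submitters' processing notes, with no role given. How reads were trimmed, annotated, filtered and divided between similar miRNAs is not given in the sources used here.

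Per the file headers, the authors deposited for each miRNA a mean normalized count over all libraries and for CK and M (a signal, counts divided by size factors), the fold as the ratio of M to CK, its log2 value, and a p-value with its Benjamini-Hochberg adjusted p-value. Their test is the one reported. The authors' means carry no standard error and are printed without one. The labels do not say whether each sample is a separate animal, and the p-values then reflect only variation among these samples, possibly technical. No label assigns a sample to CK or M, so no labelled sample is given a value.

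Folds were recomputed from the means without a pseudocount. Each mean is a sum of whole reads times 3 fixed steps, one per library, and the reads were reconstructed (Python 3.11.15, numpy 2.4.6) wherever at most 0.01 false solutions were to be expected, for 84.2% of CK and 86.1% of M values. On simulated means, 309 of 309 CK and 317 of 317 M values came out right. A level is reads divided by the size factor, and depth is the sum of the means times the size factor. Bounds use a floor of 3 reads over a group and cover counting error only.

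The 29 lists (12 of tissues and cells) and the miRNAs described were chosen with earlier results of these data known, and names of 2 miRNAs that RefSeq places elsewhere were then taken out of the Dlk1-Dio3 list. No list was tested. Family lists take all arms of their hairpins, so not all arms of a list share a seed. Named are all miRNAs past an adjusted p of 0.05, those with a mean of 100 or more at an unadjusted p below 0.05, the 10 most abundant, the most abundant and extreme members of each list, the miRNAs nearest the limit of 100 and, of scarcer ones at an unadjusted p below 0.05, the 4 most abundant in each direction. Also named, after their values were seen, were miR-206-3p, miR-351-5p, let-7e-5p, let-7c-2-3p, miR-181d-5p, miR-27a-3p, miR-451-5p, miR-30a-5p, miR-122-3p, miR-133b and miR-499. Sequences are from RefSeq (GRCr8), matched for 327 of 367 miRNAs and 179 of the 198. Neighbours within 50 kb come from the RefSeq gene table of that build, which is not the build of the files, so no coordinates are printed. Alternatives were another adjusted p threshold, other level limits, scaling to the same total, a pseudocount of 10, 1 arm per hairpin and leaving out each library.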

Additional observations from a re-analysis of the deposited data

Results flagged for a closer look

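miR-34b-3p had log2 folds of opposite sign in serum and heart, and passed the adjusted threshold in neither. In the exosome table its M libraries (0, 0 and 11.1 normalized reads) all lay below its CK libraries (70.5, 100 and 244), with a log2 fold of -5.22 (p = 0.0335, adjusted p = 0.286, the authors' deposited table). In the heart table the M libraries (65.8, 172 and 50.3) all lay above the CK libraries (31.5, 42.0 and 42.6), with a log2 fold of 1.31 (p = 0.129, adjusted p = 0.839, the authors' deposited table). The difference between the tables was not tested, and they were normalized separately.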

How the results depend on the processing

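At an adjusted p below 0.1 the authors' deposited table held 11 lower miRNAs in place of 5, and at 0.01 it held 0 higher and 1 lower, miR-199a-3p. With p adjusted over miRNAs with a mean of at least 10 or 100, it held 9 higher and 7 lower. With no level limit, 66 miRNAs were at least 2-fold higher and 136 lower, counts that include miRNAs absent from 1 group. The median log2 fold of -0.04 became -0.17 with the same total, -0.12 at a limit of 50 and -0.35 without a limit. At these lower limits, miRNAs absent from M were ranked lowest and those absent from CK highest, in the list medians too. Over the 287 miRNAs present in both groups the median without a limit was -0.15. At a limit of 10, the M libraries lay below the CK libraries for 23 of 249 solved miRNAs and above for 14, in place of 15 and 11 of 138. Of 29 list medians, 7 changed sign under at least 1 of 5 settings, among them platelet (-0.09 with the same total), striated muscle (0.05 without a limit), neural (-0.89 without a limit) and the miR-181 family (-0.66 without a limit). Of 90 named miRNAs with both means above 0, 4 changed sign with the same total and 0 with a pseudocount of 10. Of 46 named miRNAs with solved reads, 36 kept their sign without each library in turn and 10 did not, and all 16 of them at an unadjusted p below 0.05 kept it. Those 16 were chosen by p from the same libraries, which favours a kept sign, so that count is no separate support. No paired analysis was possible because the columns hold group means and no label ties a numbered sample to CK or M. Depth limits the scarce miRNAs, since 64 of 307 solved ones had reads in 1 of 6 libraries.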
